A study of Mus musculus with 13 samples.

Results

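The genes described here are the 10 YAP and TEAD genes Yap1, Wwtr1, Tead1, Ccn1, Ccn2, Ankrd1, Amotl1, Amotl2, Lats2 and Ajuba, chosen by symbol from the 27141 genes of the deposited tables, in which Ccn1 is written Cyr61 and Ccn2 is written Ctgf. All 10 passed the filter on low counts, as did 19884 genes in all, and the lowest count of any of the 10 in any library was 1639. The cells were dHeps, damaged hepatocytes isolated from the livers of CCl4-injured mice, labelled as wild type in genotype and C57BL/6 in background by the study's methods. They were obtained by perfusion with Pronase and collagenase without a sort, so other liver cells could be carried along. For injured mice with traced hepatocytes, the paper reports that at best the large majority of cells from an enriching isolation were labelled. It also describes traced cells with Desmin and collagen in injured liver. The dHeps were cultured for 16 days in serum-free Hepatocyte Maintenance Medium. The labels give no age, and the age in the study's methods is that of adult reporter mice at the start of the CCl4 injections. The medium held DMSO, the solvent, or 5C, a cocktail of 5 small molecules. These were GSK429286A (G), which inhibits ROCK, CID755673 (C), which inhibits protein kinase D, ETC-1002 (E), which activates AMPK, Salidroside (S), and forskolin (F), an activator of adenylate cyclase. The other groups received the cocktail with 1 component left out, so that 5C-G lacked GSK429286A, 5C-C lacked CID755673, 5C-E lacked ETC-1002, 5C-F lacked forskolin and 5C-S lacked Salidroside. Bulk RNA-seq gave 13 libraries in 7 groups, with 2 libraries in each group and 1 in 5C-S. The libraries held between 30195867 and 45491932 counted reads. The labels do not say whether the libraries of a group came from separate cultures or mice, and the methods call replicates biological without saying which of these was separate, so that p-values measure only the spread between these libraries, which may be technical. Of the labelled cell type, 8 hepatocyte markers summed to between 5723 and 26992 FPKM over the libraries of the replicated groups. Markers of other liver cells were found beside them. Over all libraries, 6 cholangiocyte markers summed to 1466 to 3431 FPKM and 5 mesothelial markers to 595 to 924 FPKM. Most of the cholangiocyte sum was Spp1, with group means from 1318 to 3090 FPKM. Most of the marker lists with calls are given with the comparisons. The 6 endothelial markers summed to 15.2 to 16.4 FPKM in 5C, 25.6 to 25.7 in 5C-F and 98.6 to 112 in DMSO. Of these, Pecam1 and Cdh5 were listed at 0 in 5C and 5C-F. Kdr, Lyve1 and Fcgr2b had group means of 9.74, 2.95 and 2.88 FPKM in 5C and of 4.65, 13.2 and 7.60 FPKM in 5C-F. In DMSO Pecam1 and Cdh5 were also near 0, at 0.0348 and 0.0130 FPKM, and Stab2 was at 0.413. The DMSO sum was carried by Lyve1 (71.6 FPKM), Fcgr2b (21.5) and Kdr (11.5).

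YAP (Yap1) and TAZ (Wwtr1) are transcriptional coactivators that bind no DNA themselves and act through TEAD factors such as Tead1. The Hippo kinases LATS1 and LATS2 phosphorylate them and hold them in the cytoplasm, whereas tension in the actin cytoskeleton, which ROCK helps to set up, favours their entry into the nucleus. In liver the pathway is known for its control of organ size and for high activity in injured hepatocytes, bile duct cells and activated stellate cells. Ccn1, Ccn2 and Ankrd1 are its most used readouts. Lats2, Amotl1, Amotl2 and Ajuba code for regulators of the pathway, and several of these genes are YAP targets in turn. The transcript of a coactivator does not show its location or phosphorylation, which RNA-seq does not measure.

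The readout genes Ccn1 and Ankrd1 differed in the bases before their start sites. The 250 bases upstream of the start of the canonical transcript were read from GRCm39 and searched for GGAATG on both strands (as CATTCC on the other), the core of the site that TEAD factors bind. They are shown 5′ to 3′ on the strand of the gene, with the match in capitals, as examples of a stretch with these letters and of one without them. Both genes lie on the minus strand, and the stretches shown are chr3:145355739-145355988 for Ccn1 and chr19:36097507-36097756 for Ankrd1.
Ccn1: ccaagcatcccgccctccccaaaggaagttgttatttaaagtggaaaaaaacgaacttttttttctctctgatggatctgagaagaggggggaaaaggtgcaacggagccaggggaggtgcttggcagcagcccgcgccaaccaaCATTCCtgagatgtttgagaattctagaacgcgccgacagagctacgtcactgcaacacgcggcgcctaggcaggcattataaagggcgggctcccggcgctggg
Ankrd1: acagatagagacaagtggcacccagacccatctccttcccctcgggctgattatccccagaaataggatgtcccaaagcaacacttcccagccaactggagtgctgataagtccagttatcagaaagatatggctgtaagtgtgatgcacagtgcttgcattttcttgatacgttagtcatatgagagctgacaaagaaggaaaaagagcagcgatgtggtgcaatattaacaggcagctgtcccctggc
Ccn1 held 1 match, which began 105 bases before the start, and these letters were not in the Ankrd1 stretch. Of 21770 upstream stretches of the same length of protein-coding genes, 12.1% held a match. A match of letters describes a sequence and does not show that a factor was bound, and whether a match goes with the response of a gene was not tested.

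**Figure D1:**
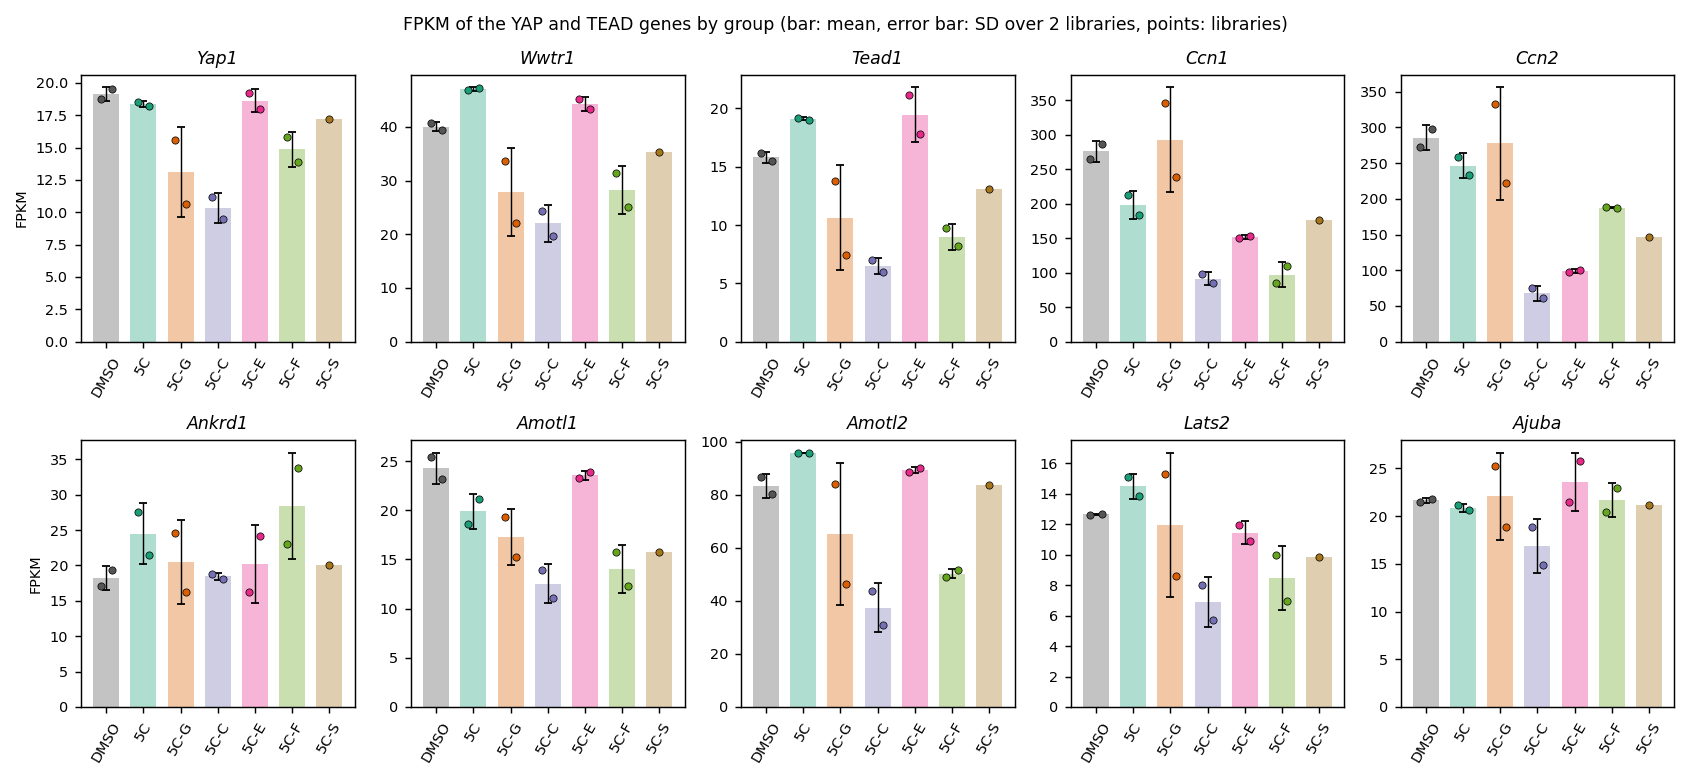
FPKM (y axis) of each of the 10 genes in the 7 groups (x axis). Points are libraries, bars are group means and error bars are the SD over 2 libraries (5C-S has 1 library and no error bar). Ccn2 lay at 60.7 and 75.1 in 5C-C and at 97.3 and 101 in 5C-E, below the other groups, whereas Ajuba stayed between 14.9 and 25.8 in all libraries.

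Levels are given in FPKM, counts scaled by the length of the gene and the total of the library, which makes genes comparable per length. On this scale Ccn1 and Ccn2 were the most abundant of the 10 genes, with group means from 91.5 to 293 for Ccn1 and from 67.9 to 286 for Ccn2. Amotl2 and Wwtr1 followed with group means from 37.5 to 95.8 and from 22.0 to 47.0. The other 6 genes stayed below 34 FPKM in all 13 libraries, with the highest value, 33.7, for Ankrd1 in a 5C-F library. Between the highest and the lowest group mean, Ccn2 spanned 4.21-fold, Ccn1 3.20-fold and Tead1 3.0-fold. Ankrd1 spanned 1.56-fold and Ajuba 1.40-fold. Ordered by group mean, and leaving out 5C-S, which has no replicate, neighbouring groups differed at an adjusted p below 0.05 only for Ccn2 between 5C-F and 5C-E (log2 difference 1.09, adjusted p = 0.000303, edgeR). The log2 fold changes below come from edgeR's quasi-likelihood test on the counts, with Benjamini-Hochberg adjustment over all tested genes, and a gene is called when the adjusted p is below 0.05 and the log2 fold change exceeds 1 in size.

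The complete cocktail was compared with the solvent to ask whether 5C altered this gene group as a whole. Of the 10 genes, 0 were called between 5C and DMSO, where 4.55% of all tested genes were called. DESeq2 also called 0, and 1 of the 10 genes, Ccn1, had an unadjusted p below 0.05. Ccn1, a secreted matrix protein, measured 213 and 184 FPKM in 5C and 265 and 286 FPKM in DMSO, with a log2 fold change of -0.55 ± 0.172 (SE, adjusted p = 0.0713, edgeR). The 5C libraries lay below both DMSO libraries, without passing the test. The adjusted p of Ccn1 was 0.0150 with DESeq2, 0.0440 in edgeR with the running number of the table's columns as a replicate block and 5.19e-05 in an edgeR fit of only these 2 groups, in which Ccn2 (0.00814), Amotl1 (0.00477) and Ankrd1 (0.0221) also lay below 0.05, all inside the fold threshold. Ccn2, a related secreted protein that promotes fibrosis, measured 259 and 234 FPKM in 5C and 273 and 298 FPKM in DMSO (log2 fold change -0.29 ± 0.169, adjusted p = 0.425, edgeR). Ankrd1, a nuclear ankyrin repeat protein, measured 27.6 and 21.4 FPKM in 5C and 17.1 and 19.4 FPKM in DMSO, and so lay on the other side (log2 fold change 0.35 ± 0.223, adjusted p = 0.471, edgeR). The median log2 fold change of the 10 genes was -0.0026 and that of all tested genes 0.0077, with 5 of the 10 genes above 0 and 5 below. The summed FPKM of 8 macrophage markers was 234 to 253 in 5C and 2154 to 2196 in DMSO, and 7 of these 8 markers were called lower in 5C. The 9 stellate cell and fibroblast markers summed to 1237 to 1256 FPKM in 5C and 1012 to 1027 in DMSO, with 1 called higher and 1 lower. Of the 6 endothelial markers 2 were called lower. Of the 6 cholangiocyte markers 1 was called higher, although their sum was lower, 1648 to 1993 FPKM in 5C and 2600 to 2960 in DMSO. That sum was mostly Spp1, at 1680 FPKM in 5C and 2667 in DMSO. By log2 fold change 4 of the 6 were higher in 5C and 2 lower, with a median of 0.38. Epcam measured 15.1 FPKM in 5C and 1.51 in DMSO. The 5 mesothelial markers summed to 714 to 788 FPKM in 5C and 863 to 873 in DMSO, with 0 called and 2 at an unadjusted p below 0.05. The part of these differences in the values of the 10 genes was not tested. In such bulk samples, fewer cells of a type and less RNA per cell cannot be told apart.

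**Figure D2:**
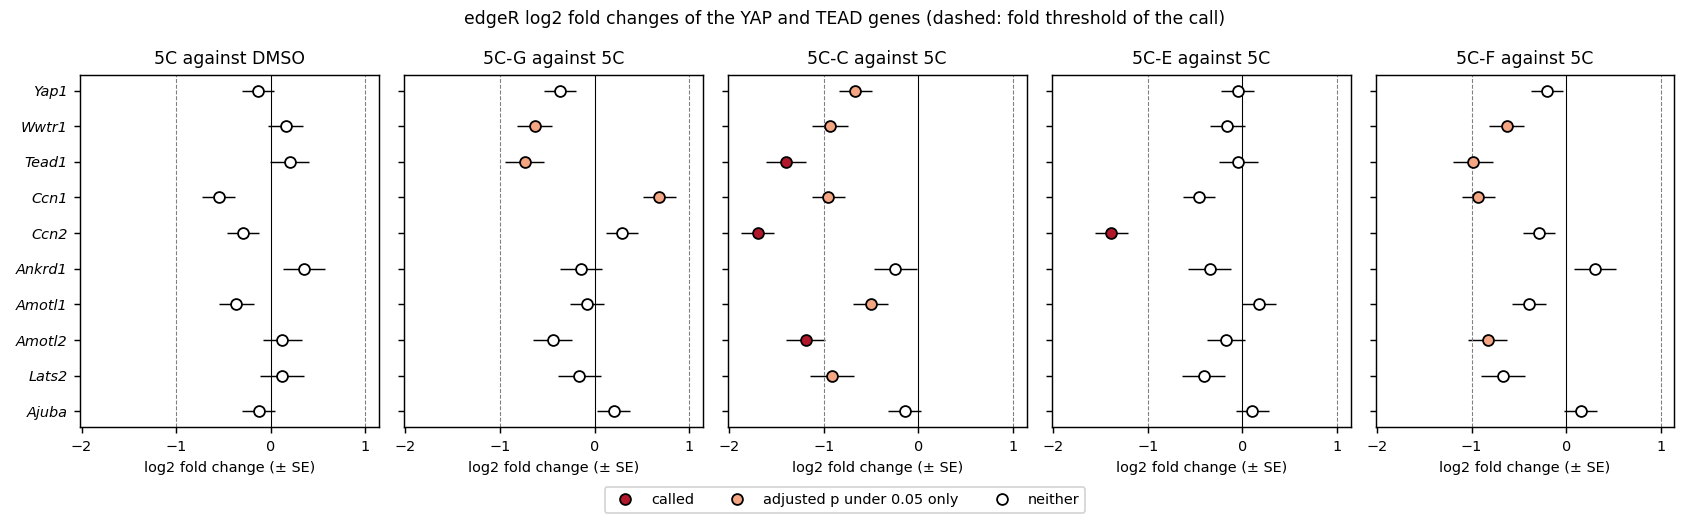
Log2 fold change (x axis, ± SE) of the 10 genes (y axis) in the comparison of 5C with DMSO and of 4 removal groups with 5C. Dark points are called, light points have only an adjusted p below 0.05 and open points neither. Called genes are Tead1, Ccn2 and Amotl2 in 5C-C and Ccn2 in 5C-E.

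When the protein kinase D inhibitor was left out, Ccn2, Tead1 and Amotl2 fell. In 5C-C against 5C, 3 of the 10 genes were called lower and 0 higher, where 10.5% of all tested genes were called lower and 9.65% higher. At an adjusted p below 0.05 with no fold threshold, 8 of the 10 genes were lower, against 18.6% of all genes. Both 5C-C libraries lay below both 5C libraries in FPKM for 10 of the 10 genes, against 38.9% of all tested genes. The median log2 fold change of the 10 genes was -0.92, and that of all tested genes was 0. The median of the 10 genes was -1.08 with total counts and -0.54 when GC content and transcript length were modelled for each library as an offset. Between the 5C-C libraries, library 1 was above library 2 for 10 of the 10 genes, by a median of 0.31 on the log2 scale and by at most 0.50, for Amotl2. The same 5C libraries serve as the reference of all 4 removals, so the comparisons are not independent of each other.

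Among the factors themselves, Tead1, which carries the DNA-binding domain, measured 6.97 and 5.99 FPKM in 5C-C and 19.2 and 19.0 FPKM in 5C. Tead1 fell by 1.40 on the log2 scale, or 2.64-fold (SE 0.211, adjusted p = 0.000139, edgeR), and the groups were far apart relative to the difference between their libraries. Wwtr1 measured 24.4 and 19.6 FPKM in 5C-C and 46.8 and 47.3 FPKM in 5C, with a log2 fold change of -0.93 ± 0.188 (adjusted p = 0.00106, edgeR). Yap1 measured 11.2 and 9.50 FPKM in 5C-C and 18.5 and 18.2 FPKM in 5C, with a log2 fold change of -0.67 ± 0.173 (adjusted p = 0.00624, edgeR). Both coactivators were lower without reaching the fold threshold. Wwtr1 was called at -1.09 with total counts (adjusted p = 0.000570, edgeR), at -1.07 and -1.10 with limma on log2(FPKM + 1) and log2(FPKM + 0.1), and at -1.05 without 5C-C library 1. The adjusted p of Yap1 was 0.0576 without 5C-C library 2 and 0.0521 without 5C library 2 (edgeR). The values of Tead1 and Wwtr1 depended on whether GC content and transcript length were modelled for each library. With such an offset the log2 fold change was -0.43 for Tead1 (adjusted p = 0.0250, edgeR), which was then not called, and -0.22 for Wwtr1 (adjusted p = 0.217, edgeR). Their transcripts had the lowest GC content of the 10 genes, 46.5% for Tead1 and 43.9% for Wwtr1. The Tead1 transcript was also the longest of the 10, at 9969 bases. The offset did not separate GC content from length, and the cause of the change was not tested.

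Of the readout genes, Ccn2 measured 75.1 and 60.7 FPKM in 5C-C and 259 and 234 FPKM in 5C. It fell by 1.70 on the log2 scale, or 3.24-fold (SE 0.174, adjusted p = 7.02e-06, edgeR), the largest change of the 10 genes in this comparison, and with the offset for GC content and length the value was again -1.70. Ccn1 measured 98.7 and 84.4 FPKM in 5C-C and 213 and 184 FPKM in 5C. Its log2 fold change was -0.95 ± 0.173 (adjusted p = 0.000509, edgeR), just inside the fold threshold, and it was -1.27 with the offset, which called it. Ankrd1 measured 18.8 and 18.1 FPKM in 5C-C and 27.6 and 21.4 FPKM in 5C. The log2 fold change of Ankrd1 was -0.24 ± 0.223 (adjusted p = 0.430, edgeR), so this readout did not pass the test in a comparison in which Ccn2 did.

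Of the regulators, Amotl2, an angiomotin family protein that binds YAP at cell junctions, measured 43.9 and 31.1 FPKM in 5C-C and 95.7 and 95.9 FPKM in 5C. Amotl2 fell by 1.19 on the log2 scale, or 2.29-fold (SE 0.205, adjusted p = 0.000326, edgeR). The call depended on a single library, since the value was -0.99 without 5C-C library 2, and without that library 2 of the 10 genes were called, whereas 6 were called without 5C-C library 1. Lats2, a kinase that inhibits YAP, measured 8.03 and 5.72 FPKM in 5C-C and 15.1 and 13.9 FPKM in 5C, with a log2 fold change of -0.91 ± 0.231 (adjusted p = 0.00517, edgeR, and 0.0716 without 5C-C library 2). The related Amotl1 had a log2 fold change of -0.51 ± 0.181 (adjusted p = 0.0369, edgeR), which turned to 0.061 with the offset. Ajuba, a LIM protein that restrains LATS kinases, measured 18.9 and 14.9 FPKM in 5C-C and 21.2 and 20.6 FPKM in 5C (log2 fold change -0.14 ± 0.174, adjusted p = 0.560, edgeR). With the offset the value of Ajuba was -0.62 (adjusted p = 0.00731, edgeR). The summed FPKM of 9 stellate cell and fibroblast markers was 1332 to 1565 in 5C-C and 1237 to 1256 in 5C, that of 8 hepatocyte markers 8609 to 9831 and 15124 to 15214, and that of the macrophage markers 620 to 1087 and 234 to 253. Of the 9 stellate cell and fibroblast markers, 1 was called higher and 2 lower, with a median log2 fold change of -0.34. Their sum was carried by Col1a1 (713 FPKM in 5C-C and 457 in 5C) and Col3a1 (429 and 243), collagen chains, whereas Dcn, a matrix proteoglycan, measured 188 and 399. Of the 8 hepatocyte markers 3 were called lower, and of the 8 macrophage markers 5 higher. The endothelial markers summed to 18.1 to 24.9 FPKM in 5C-C, with 1 of 6 called higher, 1 of 6 cholangiocyte markers was called higher, and of the 5 mesothelial markers 1 was called higher and 1 lower. The part of these cell types in the result was not tested.

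**Figure D3:**
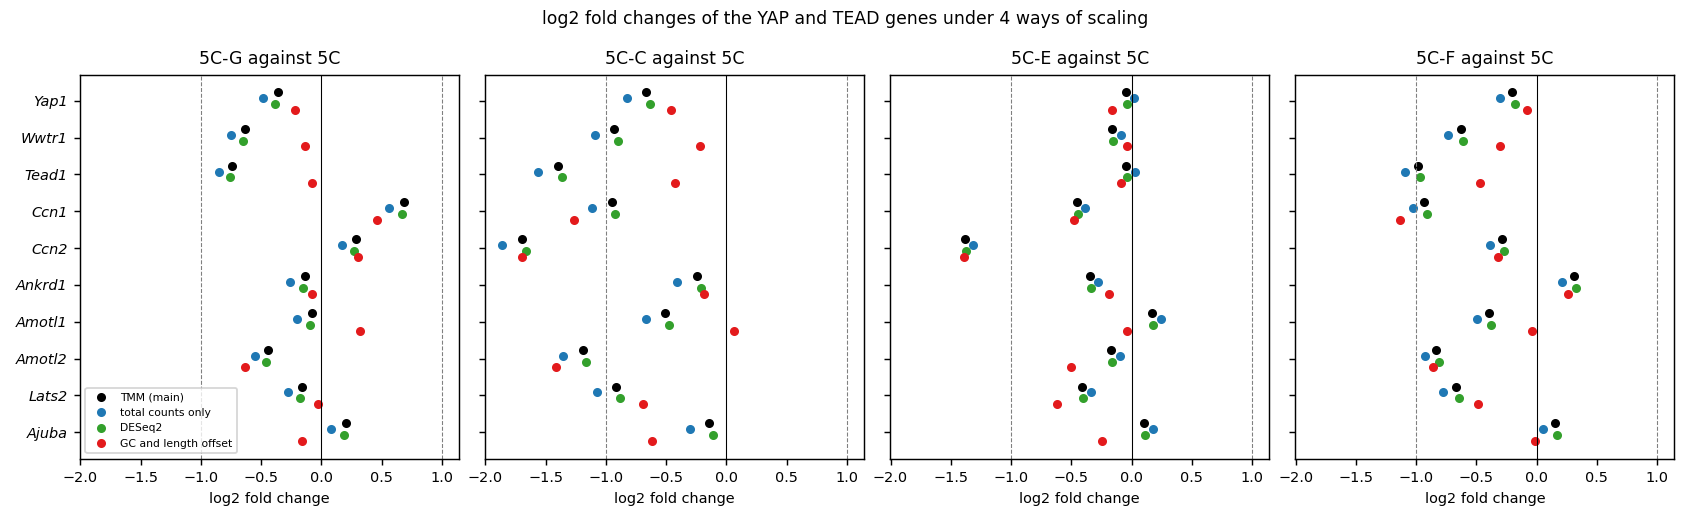
Log2 fold change (x axis) of the 10 genes (y axis) in each removal group against 5C under 4 ways of scaling the libraries, shown by colour. Dashed lines mark the fold threshold. The offset for GC content and length moved Tead1 from -1.40 to -0.43 in 5C-C, whereas Ccn2 stayed at -1.70.

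When the AMPK activator was left out, Ccn2 fell and the other 9 genes did not pass the test in the fit of all libraries. In 5C-E against 5C, 1 of the 10 genes fell and 0 rose, where 1.31% of all tested genes were called lower. Ccn2 measured 97.3 and 101 FPKM in 5C-E and 259 and 234 FPKM in 5C, and fell by 1.38 on the log2 scale, or 2.61-fold (SE 0.172, adjusted p = 0.000131, edgeR). The call was made under all the alternatives run, and the value was -1.39 with the offset. Ccn1 measured 150 and 153 FPKM in 5C-E and 213 and 184 FPKM in 5C, with a log2 fold change of -0.46 ± 0.172 (adjusted p = 0.204, edgeR). Its libraries lay below those of 5C without passing the test. In an edgeR fit of only these 2 groups, Ccn1 (adjusted p = 0.0225) and Lats2 (adjusted p = 0.0416) also passed, inside the fold threshold. Yap1 (log2 fold change -0.050 ± 0.172, adjusted p = 0.946, edgeR), Tead1 (-0.045 ± 0.206, adjusted p = 0.965) and Wwtr1 (-0.16 ± 0.186, adjusted p = 0.763) did not pass the test, and the sign for Yap1 and Tead1 turned with the scaling to total counts. The level of Ankrd1 was 16.3 FPKM in 5C-E library 1 and 24.1 in library 2, overlapping the 27.6 and 21.4 in 5C. The stellate cell and fibroblast markers summed to 1622 to 1768 FPKM in 5C-E, above the 1237 to 1256 in 5C, and the hepatocyte markers to 5723 to 6554 FPKM, below the 15124 to 15214 in 5C. Of the 9 stellate cell and fibroblast markers 1 was called higher and 1 lower, and of the 8 hepatocyte markers 4 were called lower. The macrophage markers summed to 368 to 475 FPKM in 5C-E, above the 234 to 253 in 5C, with 0 of the 8 called and 2 at an unadjusted p below 0.05. The endothelial markers summed to 33.2 to 35.2 FPKM, above the 15.2 to 16.4 in 5C, with 2 of the 6 called higher, and Kdr, a VEGF receptor, measured 22.1 FPKM in 5C-E and 9.74 in 5C. Their part in the lower Ccn2 was not tested.

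When forskolin was left out, Tead1, Ccn1, Amotl2 and Wwtr1 were lower by less than the fold threshold in the fit of all libraries, and Ccn2 did not pass the test. Each of these 4 genes missed the adjusted p of 0.05 when some single library was left out. In 5C-F against 5C, 0 of the 10 genes were called, where 4.84% of all tested genes were called (2.69% higher and 2.15% lower). DESeq2 also called 0, and 6 of the 10 genes had an unadjusted p below 0.05. At an adjusted p below 0.05 with no fold threshold, 4 of the 10 genes were lower (Tead1, Ccn1, Amotl2 and Wwtr1), against 4.98% of all genes, and both libraries lay below both 5C libraries in FPKM for 8 of the 10, against 33.7% of all genes. Ccn1 measured 84.7 and 110 FPKM in 5C-F and 213 and 184 FPKM in 5C, with a log2 fold change of -0.93 ± 0.173 (adjusted p = 0.00372, edgeR). Ccn2 measured 189 and 187 FPKM in 5C-F and 259 and 234 FPKM in 5C, with a log2 fold change of -0.29 ± 0.169 (adjusted p = 0.293, edgeR). In 5C-E it was Ccn2 that passed the test and Ccn1 that did not. The difference between 5C-F and 5C-E was tested for Ccn2 as given above, and for Ccn1 the 5C-E level was higher by 0.48 on the log2 scale (adjusted p = 0.0690, edgeR), which did not pass the test. Tead1 measured 9.75 and 8.21 FPKM in 5C-F and 19.2 and 19.0 FPKM in 5C, with a log2 fold change of -0.99 ± 0.209 (adjusted p = 0.00798, edgeR) that became -0.47 with the offset for GC content and length. With the replicate block Tead1 was just past the fold threshold and called (adjusted p = 0.000814, edgeR). With a library left out, the edgeR adjusted p reached 0.0619 for Ccn1 (without 5C library 1), 0.0861 for Tead1 and 0.259 for Wwtr1 (without 5C-F library 2) and 0.131 for Amotl2 (without 5C library 2), and Amotl2 missed 0.05 without any 1 of the 4 libraries. The value of Ccn1 was -1.01 without 5C library 2. Over all alternatives run it ranged from -1.14 to -0.79, and that of Tead1 from -1.16 to -0.47. Total counts and both limma fits called 2 of the 10 genes in 5C-F, and the offset called 1. The median log2 fold change of the 10 genes was -0.51, and -0.31 with the offset. Amotl2 measured 49.0 and 51.5 FPKM in 5C-F and 95.7 and 95.9 FPKM in 5C, with a log2 fold change of -0.83 ± 0.203 (adjusted p = 0.0170, edgeR). Wwtr1 measured 31.5 and 25.1 FPKM in 5C-F (log2 fold change -0.63 ± 0.187, adjusted p = 0.0397, edgeR), and its value with the offset was -0.31 (adjusted p = 0.117). Ankrd1 measured 23.1 and 33.7 FPKM in 5C-F, the highest group mean for this gene, with libraries that overlapped those of 5C (log2 fold change 0.31 ± 0.222, adjusted p = 0.408, edgeR). The hepatocyte markers summed to 22033 to 26992 FPKM in 5C-F and the stellate cell and fibroblast markers to 795 to 878 FPKM, against 15124 to 15214 and 1237 to 1256 in 5C. The macrophage markers summed to 759 to 1039 FPKM in 5C-F and to 234 to 253 in 5C, with 7 of the 8 called higher. Of the 8 hepatocyte markers 2 were called higher, and of the 9 stellate cell and fibroblast markers 1 was called lower. Of the 5 mesothelial markers 2 were called lower and 1 higher, with Gpm6a at 107 FPKM in 5C-F and 285 in 5C and Wt1 at 16.7 and 38.3. The cholangiocyte markers summed to 3186 to 3431 FPKM in 5C-F and 1648 to 1993 in 5C, with 1 of the 6 called higher. Spp1 carried that sum, at 3090 FPKM in 5C-F and 1680 in 5C. In the same order Krt19 measured 147 and 74.5 FPKM and Sox9 13.7 and 8.23. Epcam measured 15.2 and 15.1 FPKM, Krt7 28.8 and 29.7 and Cldn4 14.3 and 12.9. Of the 6 endothelial markers 2 were called higher. Their part in these values was not tested.

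When the ROCK inhibitor was left out, Ccn1 was higher and Tead1 and Wwtr1 were lower, all by less than the fold threshold. In 5C-G against 5C, 0 of the 10 genes were called, where 13.1% of all tested genes were called (7.47% higher and 5.64% lower). DESeq2 also called 0, and 4 of the 10 genes had an unadjusted p below 0.05. At an adjusted p below 0.05 with no fold threshold, 3 of the 10 genes differed, against 25.6% of all genes. Ccn1 measured 346 and 239 FPKM in 5C-G and 213 and 184 FPKM in 5C, and was higher with a log2 fold change of 0.68 ± 0.173 (adjusted p = 0.00785, edgeR). With the offset for GC content and length its value was 0.46 (adjusted p = 0.050, edgeR, just short of the threshold), and without 5C library 2 it was 0.55 (adjusted p = 0.130). Ccn2 measured 333 and 222 FPKM in 5C-G, on both sides of the 5C libraries (log2 fold change 0.29 ± 0.169, adjusted p = 0.230, edgeR). Tead1 measured 13.8 and 7.45 FPKM in 5C-G and 19.2 and 19.0 FPKM in 5C, with a log2 fold change of -0.74 ± 0.208 (adjusted p = 0.0148, edgeR). Wwtr1 measured 33.7 and 22.1 FPKM in 5C-G and 46.8 and 47.3 FPKM in 5C, with a log2 fold change of -0.63 ± 0.187 (adjusted p = 0.0189, edgeR). With limma on log2(FPKM + 1) the adjusted p of Ccn1 was 0.0742. With the offset Tead1 was at -0.077 (adjusted p = 0.744) and Wwtr1 at -0.14 (adjusted p = 0.474), so neither passed the test there, while Amotl2 passed at -0.64 (adjusted p = 0.0244). In an edgeR fit of only these 2 groups, Tead1 (adjusted p = 0.0595) and Wwtr1 (adjusted p = 0.0526) did not pass. Ankrd1 measured 24.6 and 16.3 FPKM in 5C-G (log2 fold change -0.14 ± 0.223, adjusted p = 0.699, edgeR). The 5C-G libraries stood apart from each other, since library 1 was above library 2 for 10 of the 10 genes, by a median of 0.59 on the log2 scale, and the largest gap was 0.89 for Tead1. Without 5C-G library 1, Tead1 had a log2 fold change of -1.14 and was called (adjusted p = 0.000460, edgeR). Without any other single library of these 2 groups it missed the threshold, with an edgeR adjusted p from 0.0626 (without 5C library 2) to 0.179 (without 5C-G library 2). The macrophage markers summed to 2672 to 4223 FPKM in 5C-G and to 234 to 253 FPKM in 5C, with 7 of the 8 called higher. The hepatocyte markers summed to 8677 to 10099.5 FPKM in 5C-G and to 15124 to 15214 in 5C, with 3 of the 8 called lower and 1 higher. The endothelial markers summed to 61.9 to 67.7 FPKM in 5C-G and 15.2 to 16.4 in 5C, with 2 of the 6 called higher and 1 lower. Lyve1 (38.6 FPKM in 5C-G and 2.95 in 5C) and Fcgr2b (21.5 and 2.88) carried the higher sum. Kdr was lower (4.48 and 9.74), and Pecam1 and Cdh5 were near 0 in 5C-G (0.0154 and 0.0148). Of the 6 cholangiocyte markers 2 were called lower, and of the 5 mesothelial markers 1 was called higher and 1 lower. Their part in the values of the 10 genes was not tested.

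The removals were also set against DMSO and against each other, in comparisons that share libraries with those above. Against DMSO, 4 of the 10 genes fell in 5C-C (11.7% of all tested genes called lower), 2 fell in 5C-E (3.68%), 1 fell in 5C-F (4.22%) and 0 were called in 5C-G (5.83% called in either direction, with 4 of the 10 genes at an unadjusted p below 0.05 and 0 called by DESeq2). Ccn2 fell by 1.99 on the log2 scale in 5C-C (SE 0.176, adjusted p = 5.62e-07, edgeR) and by 1.67 in 5C-E (SE 0.174, adjusted p = 4.27e-06, edgeR). In 5C-G the log2 fold change of Ccn2 against DMSO was 0.0021 ± 0.169 (adjusted p = 1, edgeR). Ccn1 fell by 1.5 in 5C-C (adjusted p = 9.58e-06, edgeR), by 1.48 in 5C-F (adjusted p = 3.89e-05, edgeR) and by 1.01 in 5C-E (adjusted p = 0.000785, edgeR). The last value lay at the fold threshold and its call was lost under several alternatives. At an adjusted p below 0.05 with no fold threshold, 8 of the 10 genes passed in 5C-C against DMSO (37.1% of all tested genes) and 5 in 5C-F against DMSO (14.5%), and for 5C-G 5 passed against 5C-C (11.7%), 3 against 5C-E (19.6%) and 2 against 5C-F (12.5%). Tead1 fell by 1.20 (adjusted p = 0.000322, edgeR) and Amotl2 by 1.07 (adjusted p = 0.000623, edgeR) in 5C-C. The call of Tead1 was lost with the offset (-0.21, adjusted p = 0.246, edgeR), and that of Amotl2 without DMSO library 1 (-0.98) or without 5C-C library 2 (-0.86). The direct comparison of 5C-G with the other removals called Ccn1 higher in 5C-G than in 5C-C (log2 difference 1.64, adjusted p = 1.01e-05, edgeR), than in 5C-E (1.14, adjusted p = 0.000276) and than in 5C-F (1.62, adjusted p = 1.45e-05). The Ccn1 call against 5C-E was lost with total counts (0.95), both limma fits (0.92), the offset (0.94) and without 5C-G library 1 (0.95), where Tead1 was called lower in 5C-G (-1.09). Ccn2 was called higher in 5C-G than in 5C-C (1.99, adjusted p = 1.39e-06, edgeR) and than in 5C-E (1.67, adjusted p = 5.88e-06), and the difference from 5C-F stayed inside the fold threshold (0.58, adjusted p = 0.0312). Ccn1 and Ccn2 were the 2 genes called of the 10 against 5C-C and against 5C-E, where 4.14% and 5.19% of all tested genes were called higher in 5C-G, and Ccn1 was the 1 gene called against 5C-F, where 3.76% were. Of the 8 macrophage markers, 7 were called higher in 5C-G than in 5C-C, 7 than in 5C-E and 6 than in 5C-F. The part of these cell types in the values of the 10 genes was not tested.

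The single 5C-S library allowed no test. Its FPKM lay below both 5C libraries for 9 of the 10 genes, against 35.5% of all tested genes, and between them for Ajuba, at 21.1. The largest log2 difference from 5C was -0.76 for Ccn2, at 147 FPKM, followed by -0.57 for Lats2 at 9.85 FPKM and -0.57 for Tead1 at 13.1 FPKM. No gene of the 10 lay beyond a log2 difference of 1, whereas 18.9% of all tested genes did, and 25.4% of tested genes lay further from 5C than Ccn2.

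**Figure D4:**
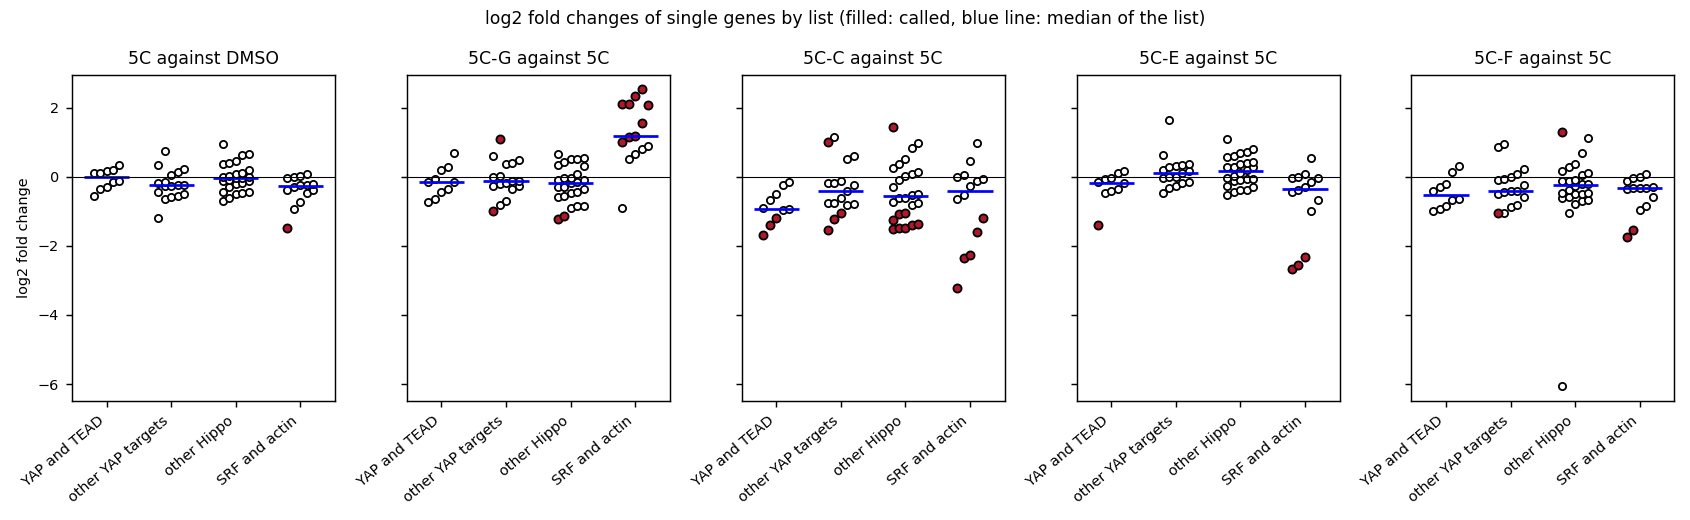
Log2 fold change (y axis) of single genes in the 10 YAP and TEAD genes and 3 further lists (x axis), with a panel for each comparison. Filled points are called and blue lines are list medians. In 5C-G the SRF and actin genes had a median of 1.18, whereas the 10 YAP and TEAD genes had a median of -0.15.

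Other genes of the pathway were followed in 3 lists, which were chosen with earlier results of these data known. The list of 26 further Hippo pathway genes had 0 called in 5C against DMSO (7 at an unadjusted p below 0.05) and 0 in 5C-E against 5C (6 at an unadjusted p below 0.05), and DESeq2 called 0 in both. In 5C-C against 5C, 8 of the 26 fell and 1 rose (10.5% and 9.65% of all tested genes), with a median of -0.56, but with the offset for GC content and length 0 were called and the median was -0.16. Amot, the third angiomotin, fell by 1.48 in 5C-C (SE 0.284, adjusted p = 0.000749, edgeR) and by 1.14 in 5C-G (SE 0.281, adjusted p = 0.00674, edgeR). In 5C-G the call of Amot was lost with the offset (-0.61) and with limma on log2(FPKM + 1) (-0.85). Without 5C-G library 2 its value was -0.75, inside the fold threshold. Taok1, a kinase that activates the Hippo kinases, fell by 1.51 in 5C-C (SE 0.201, adjusted p = 6.11e-05, edgeR). Wwc1, the scaffold protein KIBRA, fell by 1.23 in 5C-G (SE 0.230, adjusted p = 0.00110, edgeR), where 2 of the 26 fell and 0 rose (5.64% and 7.47% of all tested genes, and 1 fell with the offset). Without 5C-G library 1, 5 of the 26 were called lower, with Lats1, Mob1b and Taok1 added, and without 5C-G library 2, 1 was. In 5C-C, 12 of the 26 were called lower without 5C-C library 1 and 6 without 5C-C library 2. Tead2, a paralog of Tead1, was on the other side of 0 in 5C-C. Tead2 measured 7.17 ± 0.671 FPKM in 5C-C and 6.86 ± 0.543 in 5C-F, against 2.97 ± 0.250 in 5C (SD, n = 2 each), and rose by a log2 fold change of 1.43 in 5C-C (adjusted p = 0.000120, edgeR) and of 1.30 in 5C-F (adjusted p = 0.00137, edgeR), the 1 call of the list there (2.69% of all tested genes rose). Its call in 5C-C was among those lost with the offset, and its call in 5C-F was lost with limma on log2(FPKM + 1) (0.985).

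The list of 17 further YAP targets had 0 called in 5C against DMSO (3 at an unadjusted p below 0.05) and 0 in 5C-E against 5C (1 at an unadjusted p below 0.05), and DESeq2 called 0 in both. In 5C-C, 3 of the 17 fell and 1 rose (10.5% and 9.65% of all tested genes), with a median of -0.42 that became -0.084 with the offset, under which 0 were called. Tgfb2, a TGF-beta ligand, fell by 1.55 in 5C-C (SE 0.194, adjusted p = 4.06e-05, edgeR). Crim1, a transmembrane protein that binds BMPs, fell by 1.22 in 5C-C (SE 0.229, adjusted p = 0.000663, edgeR) and by 1.06 in 5C-F (SE 0.228, adjusted p = 0.00892, edgeR), the 1 call of the list there (2.15% of all tested genes fell). The call of Crim1 in 5C-F was lost without 5C library 1, 5C library 2 or 5C-F library 2 (adjusted p from 0.0567 to 0.102, edgeR), and that in 5C-C without 5C-C library 2 (-0.94). Gadd45a, a stress response gene, rose by a log2 fold change of 1.00 in 5C-C (adjusted p = 0.00129, edgeR) and of 1.10 in 5C-G (adjusted p = 0.00113, edgeR), but inside the fold threshold in both with total counts and both limma fits. In 5C-C the call of Gadd45a was also lost without 5C library 1, with the replicate block and without 5C-C library 2, where its value was 0.64. Rbms3, an RNA-binding protein, fell by 1.00 in 5C-G (SE 0.187, adjusted p = 0.00104, edgeR), where 1 of the 17 rose and 1 fell (7.47% and 5.64% of all tested genes). The call of Rbms3 in 5C-G lay at the fold threshold and was lost without 5C library 1 (-0.98) or 5C-G library 2 (-0.91), and without 5C-G library 1 the list had 2 genes called lower. With the offset 0 genes of this list were called in 5C-G and in 5C-F as well.

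The list of 14 SRF targets and actin cytoskeleton genes, which share the input of actin tension with YAP, was measured beside them. In 5C-G against 5C, 9 of the 14 rose and 0 fell (7.47% and 5.64% of all tested genes), with a median of 1.18 (with the offset 7 rose and the median was 1.01), while the 10 YAP and TEAD genes had a median of -0.15 and 0 calls. Vcl was on the other side of 0 (-0.89, adjusted p = 0.205, edgeR), and was called lower without 5C-G library 1 (-1.85) and with the replicate block (-1.06, adjusted p = 0.0460). Across the other alternatives 7 to 9 of the list were called higher, and the call of Tagln was lost without 5C library 1 or 5C-G library 2. Myl9, a myosin light chain, measured 159 ± 39.8 FPKM in 5C-G and 30.4 ± 0.630 in 5C (SD, n = 2 each), and rose by a log2 fold change of 2.53 (SE 0.220, adjusted p = 7.56e-07, edgeR). Cnn1, a calponin of smooth muscle, rose by a log2 fold change of 2.33 in 5C-G (SE 0.396, adjusted p = 0.000497, edgeR). Cnn1 fell in 5C against DMSO by 1.47 (adjusted p = 0.0287, edgeR), the 1 call of the list there (4.55% of all tested genes called), and this call was lost without any 1 of the 4 libraries and with limma on log2(FPKM + 0.1). In 5C-C, 5 of the 14 fell and 0 rose (10.5% and 9.65% of all tested genes). Tpm2, a tropomyosin, lay just inside the fold threshold there (0.99, adjusted p = 0.00317, edgeR), and was called higher with DESeq2 (1.02), with both other filters on low counts, in a fit of only these groups and without 5C library 1 or 5C-C library 1. Vcl, the focal adhesion protein vinculin, fell by 3.21 there (SE 0.535, adjusted p = 0.000269, edgeR) and Acta2, smooth muscle actin, by 2.36 (SE 0.214, adjusted p = 2.63e-06, edgeR). The 5C-C libraries of Vcl stood far apart, at 1.00 and 5.59 FPKM, against 32.8 and 34.1 in 5C. Acta2 measured 38.7 ± 7.68 FPKM in 5C-C, 224 ± 12.9 in 5C and 869 ± 173 in 5C-G (SD, n = 2 each), an order of these 3 groups that Ccn2 and Ccn1 share by their means. For Ccn2, however, the 5C-G libraries (333 and 222 FPKM) lay on both sides of the 5C libraries (259 and 234), and that difference did not pass the test. In 5C-E, 3 of the 14 fell (1.31% of all tested genes), with Cnn1 at -2.68 (adjusted p = 0.00151, edgeR) and Tagln, the actin-binding protein transgelin, at -2.56 (adjusted p = 0.0124, edgeR), and both calls were lost without 5C-E library 2 and that of Tagln without 5C library 2. In 5C-F, 2 fell (2.15% of all tested genes), with Vcl at -1.75 (adjusted p = 0.0350, edgeR) and Cnn1 at -1.53 (adjusted p = 0.0242, edgeR). The call of Vcl in 5C-F was lost with DESeq2 (adjusted p = 0.0685), and those of Vcl and Cnn1 with both limma fits and without either 5C library or 5C-F library 1. The call of Vcl was also lost without 5C-F library 2. Activated stellate cells also express many of these genes, and the stellate cell and fibroblast markers summed to 1204 to 1351 FPKM in 5C-G and to 1237 to 1256 in 5C. Of these 9 markers, 1 was called higher and 2 lower in 5C-G, with a median log2 fold change of -0.79, and Des, the muscle and stellate cell filament desmin, measured 86.1 FPKM in 5C-G and 15.5 in 5C. Their part in the SRF and actin genes was not tested.

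The genes most like Ccn2 and Ankrd1 were sought among 14207 genes by the root mean square difference of the centred log2 CPM over the 7 group means. For Ccn2, whose group means spanned 1.99 on this scale, these were Prss23 (0.184), Gm45819 (0.20), Avpr1a (0.238), Neto2 (0.262) and Calcrl (0.280). For Ankrd1, whose group means spanned only 0.66, these were Dnajc21 (0.0549), Set (0.0746), Gm38345 (0.0826), Tmem183a (0.0831) and Psmd5 (0.0835). None of the other 9 YAP and TEAD genes was among the 5 closest genes of either. The small distances for Ankrd1 go with its narrow range, in which many genes with little difference between groups lie close to each other.

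In GRCm39 coordinates of GENCODE M39, the 10 protein-coding genes lie on 6 chromosomes. Yap1 (ENSMUSG00000053110) lies at chr9:7932000-8004661 on the minus strand, Wwtr1 (ENSMUSG00000027803) at chr3:57363067-57483331 on the minus strand, and Tead1 (ENSMUSG00000055320) at chr7:112278522-112506014 on the plus strand. Ccn1 (ENSMUSG00000028195) lies at chr3:145352720-145355738 on the minus strand, Ccn2 (ENSMUSG00000019997) at chr10:24471333-24474900 on the plus strand, and Ankrd1 (ENSMUSG00000024803) at chr19:36089352-36097506 on the minus strand. Amotl1 (ENSMUSG00000013076) lies at chr9:14453262-14556352 on the minus strand, Amotl2 (ENSMUSG00000032531) at chr9:102593836-102610617 on the plus strand, Lats2 (ENSMUSG00000021959) at chr14:57926960-57995845 on the minus strand, and Ajuba (ENSMUSG00000022178) at chr14:54804787-54815027 on the minus strand. Of the 10 genes, 8 overlap another annotated gene, mostly non-coding, and 3 of these on the same strand. Ajuba and Amotl2 overlap none. Since the strand setting of the counting is not given in the sources used here, reads of overlapping genes cannot be told apart from those of the 8 genes.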

How the data were processed

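Per the labels and methods, the authors sequenced RNA as paired reads and counted them per gene with featureCounts of the Subread package on GRCm39, and named DESeq2 for testing. For these bulk libraries the version of featureCounts and Subread is not given in the sources used here. The authors deposited a table of raw counts and a table of FPKM for 13 libraries. The FPKM equalled the count divided by a gene length and the library total within 0.2% for 27140 genes, so both tables share their depth. The column names give the group of each library but do not tie it with certainty to a sample, and library numbers name columns only.

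Counts were tested with edgeR 4.0.16 (quasi-likelihood, TMM, filterByExpr, 19884 genes, all libraries in 1 fit with 6 residual degrees of freedom) in R 4.3.3, called at a Benjamini-Hochberg adjusted p below 0.05 and a log2 fold change beyond 1. The estimated biological coefficient of variation was 0.261. Libraries of a group differed beyond sampling noise, with a chi-square per degree of freedom from 8.01 in DMSO to 86.6 in 5C-G. The alternatives were total counts, DESeq2 1.42.0, other filters, only the groups compared, limma 3.58.1 on log2(FPKM + 1) and log2(FPKM + 0.1), an offset for GC content and length (known for 99.5% of the genes), no fold threshold, each library left out in turn, and, added after seeing the data, the running number of the columns as a replicate block. The text names all 10 genes, at most 2 called genes with the largest rise and 2 with the largest fall per list and comparison, and the 5 genes most like Ccn2 and Ankrd1 with a mean of at least 1 CPM. The genes and lists were chosen with earlier results of these data known. The upstream sequence of some of the genes is not reported here.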

Additional observations from a re-analysis of the deposited data

How the results depend on the processing

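Between 5C and DMSO, and between 5C-G and DMSO, 0 of the 10 genes were called under all alternatives run, and Ccn2 was called lower in 5C-E against 5C under all of them. Without the fold threshold the genes called were 3 in 5C-G, 8 in 5C-C and 4 in 5C-F against 5C, 8 in 5C-C and 5 in 5C-F against DMSO, and, for 5C-G, 5 against 5C-C, 3 against 5C-E and 2 against 5C-F. In 5C-C against 5C, in place of 3 calls, total counts gave 6, limma on log2(FPKM + 1) gave 5 and on log2(FPKM + 0.1) gave 6, and leaving out a library gave 2 to 6. In 5C-C against DMSO, in place of 4, the offset gave 3 and leaving out a library (DMSO library 1 or 5C-C library 2) gave 3 to 4. In 5C-F against 5C, in place of 0, total counts and both limma fits gave 2, the offset for GC content and length gave 1, and leaving out a library (5C library 2 or either 5C-F library) gave 0 to 1. In 5C-E against DMSO, in place of 2, total counts, every gene kept, at least 10 counts in every library, only the groups compared, both limma fits and the offset gave 1, and leaving out a library (DMSO library 2 or 5C-E library 1) gave 1 to 2. In 5C-G against 5C-E, in place of 2, total counts, both limma fits and the offset gave 1 (without Ccn1). Leaving out a library gave 0 to 1 calls in 5C-G against 5C, and 2 to 4 in 5C-G against 5C-C (4 without 5C-G library 2).

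The sign turned for values that were not called. With the offset these were Ajuba in 5C against DMSO (0.086), in 5C-G (-0.16), in 5C-E (-0.25) and in 5C-F (-0.012), and Amotl1 in 5C-G (0.32), in 5C-C (0.061, against -0.51 and an edgeR adjusted p of 0.0369 without it) and in 5C-E (-0.037), against 5C where no other group is named. With total counts, limma on log2(FPKM + 1) and limma on log2(FPKM + 0.1) they were Yap1 in 5C-E (0.021, 0.019 and 0.020) and Tead1 in 5C-E (0.026, 0.020 and 0.020). With each library left out in turn, Ankrd1 in 5C-G ranged from -0.36 to 0.052 (above 0 without 5C library 1, at 0.035, or 5C-G library 2), Lats2 in 5C-G from -0.52 to 0.12 (above 0 without 5C-G library 2), and in 5C-E Tead1 ranged from -0.14 to 0.074 and Ajuba from -0.033 to 0.26 (both turned without 5C-E library 2). The causes were not tested. Under total counts the log2 fold change of the median gene moved by -0.13 in 5C-G and -0.16 in 5C-C against 5C, by 0.15 in 5C-E against DMSO and by -0.20 in 5C-G against 5C-E. The running number of the table's columns was used as a replicate block in an alternative chosen after seeing the data, although no source says that it marks a shared culture or mouse. The differences between libraries 1 and 2 correlated across genes at -0.032 to 0.077 between the 15 pairs of groups, with 0 pairs above 0.1, so the numbers were not taken to pair the libraries. With this block 1 gene was called in 5C-F against 5C (Tead1, just past the fold threshold) in place of 0, and no other count of the 10 genes changed. With 2 libraries a group, a difference that missed the test is not shown to be absent.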
